A study of Nymphaea colorata and Nymphaea micrantha with 16 samples.

Results

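The 4 libraries described here came from submerged, completely rolled leaves of *N. micrantha*, the viviparous X-species, at the first 2 of 4 developmental stages. They were chosen by their labels, 4 of the 16 libraries of the series. Stage 2 (X2) is leaves of 4 to 6 cm, with the libraries X2-1 and X2-2, and stage 1 (X1) is leaves of 1 to 2 cm, with X1-1 and X1-2. Both groups are wild-type plants grown in containers without any treatment, and leaf material of both was taken with the nose part, where a plantlet can form. The study mixed leaves of several plants of the genotype for each sample, so a library is a pool, and the labels do not say whether libraries 1 and 2 came from separate plants. A p-value therefore measures only the spread between pools. The question of the comparison is which transcripts change while the leaf lengthens under water, before it reaches the surface. The other libraries are the later stages of this species, partly rolled with the tip at the surface (X3) and unfolded (X4), and the same stages of the non-viviparous *N. colorata* (L1 to L4).

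In a young leaf, cells first divide and then enlarge. Dividing cells make histones, replication proteins, cyclin-dependent kinase complexes and the kinesins of the mitotic spindle, and new cells need many ribosomes. Enlarging cells take up water through aquaporins and loosen and rebuild their walls with xyloglucan-modifying enzymes, pectinesterases and cellulose synthases. Water conducting and supporting cells later add a secondary wall with lignin. Chloroplasts fill with light-harvesting proteins and the enzymes of carbon fixation as the leaf becomes able to photosynthesise.

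Expression is given as FPKM, the reads on a gene set against its length and the library's total, and differences as log2(FPKM + 1), where the added 1 makes the change of weakly expressed genes smaller than the plain ratio. The whole reads behind the values could be recovered. X2-1 had 31440253 reads on genes and X2-2 had 29056248, against 29972975 in X1-1 and 24815135 in X1-2, and the median tested gene had 691.5 reads, so counting error limits only the weakest genes. Of 31475 genes, 15237 had FPKM of at least 1 in at least 2 of the 4 libraries and were tested.

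The replicates of these stages lay further apart than those of any other group. The SD over genes of the log2 difference between replicates was 0.672 in X2 and 0.555 in X1, against 0.249 to 0.385 in the other 6 groups over the same genes. The X2 libraries differed by at least 2-fold for 1852 genes (12.2%), and the X1 libraries for 1004 (6.59%). By contrast, the means of X2 and X1 differed by at least 2-fold for 703 genes, 420 higher in X2 and 283 lower. Of the sum of squares in the 4 libraries, 37.8% lay between the stages, 36.5% between the X2 replicates and 25.7% between the X1 replicates. Each part rests on the same number of differences per gene. Replicate spread of this size would therefore by itself give the stages a share of similar size. Across genes, X2-2 correlated with X1-1 at 0.954 (Pearson r), more than it did with X2-1 (0.934).

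In the principal components of the 8 X-species libraries, the first component (55.8% of the variance) held X2 and X1 together, from −50.7 to −50.9 in X2 and from −54.2 to −55.3 in X1, and set both apart from X3 and X4. On the second (21.2%), X2-1 and X2-2 stood at 6.33 and −2.93, against −29.3 and −12.9 for X1-1 and X1-2. X3 lay higher, at 51.3 and 56.8, and X4 below X1, at −35.6 and −33.7, so this component did not run with the stage. The third (11.3%) pulled X2-1 (54.4) and X1-2 (−42.0) to opposite sides, while X2-2 (−7.47) and X1-1 (1.16) stayed near the later libraries. On a line where the X1 mean is 0 and the X3 mean is 1, X2-1 stood at 0.269 and X2-2 at 0.2, both on the X3 side of X1. The X1 mean enters both the line and the distances, so spread of the X1 libraries alone pushes other libraries to that side. X4-1 and X4-2 stood at 0.791 and 0.821, short of X3, so the line is not a scale of stage. These positions are descriptions without a test.

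**Figure D1:**
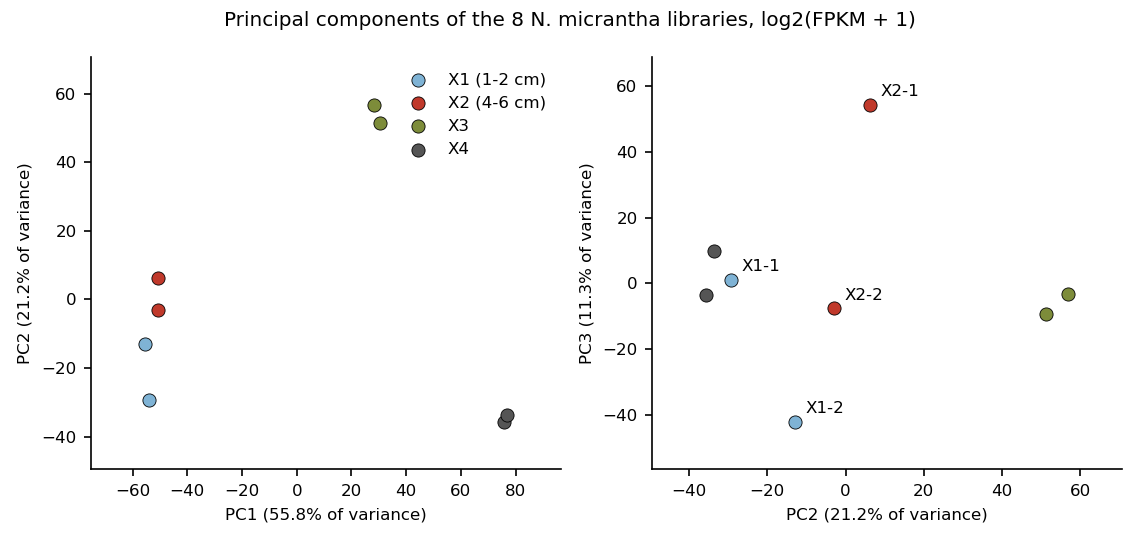
Principal components of log2(FPKM + 1) over 15237 genes for the 8 X-species libraries, each point a library; the left panel plots the first against the second component and the right panel the second against the third. X2 and X1 lie together on the first component, X2 lies above X1 on the second with X3 above both and X4 below both, and on the third X2-1 (54.4) and X1-2 (−42.0) stand at opposite ends.

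No gene passed the test between X2 and X1. In a limma fit of the 4 libraries, 0 of 15237 genes (0.0%) met both thresholds (p adjusted by Benjamini and Hochberg below 0.05, stage means at least 1 apart on the log2 scale), and the smallest adjusted p was 0.0805. At an unadjusted p under 0.05 there were 814 genes, of which 525 (3.45%) also differed by at least 2-fold, 298 higher in X2 (1.96%) and 227 lower (1.49%). Limma's voom on the recovered reads also called 0 genes, with 761 at an unadjusted p under 0.05. An exact permutation test of a single gene, 2 libraries against 2, cannot go below p = 0.333.

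The count depended on whose spread was used. When all 16 libraries shared 1 estimate of the spread, 314 genes (2.06%) were called, 184 higher in X2 (1.21%) and 130 lower (0.853%), but that estimate comes mostly from groups whose replicates agreed better than these. In the same fit with a variance for each group, a setting chosen after seeing the data, 31 genes (0.203%) were called, 24 higher (0.158%) and 7 lower (0.0459%), and all 31 were among the 314. With library scaling by median ratios, 70.1% of the calls of the 16-library fit were higher in X2, against 58.6% without it. Without X2-2 that fit called 894 genes, without X2-1 257, without X1-1 720 and without X1-2 160. In the 4-library fit, 66 genes were called without X1-1 and 10 without X1-2. Both X2 libraries were above both X1 libraries for 1665 genes (10.9%) and below both for 3070 (20.1%), and with a difference of at least 2-fold for 335 (2.2%) and 256 (1.68%). With the 4 libraries in random order, the groups would lie apart for a fraction of 0.333 of genes, both directions together.

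**Figure D2:**
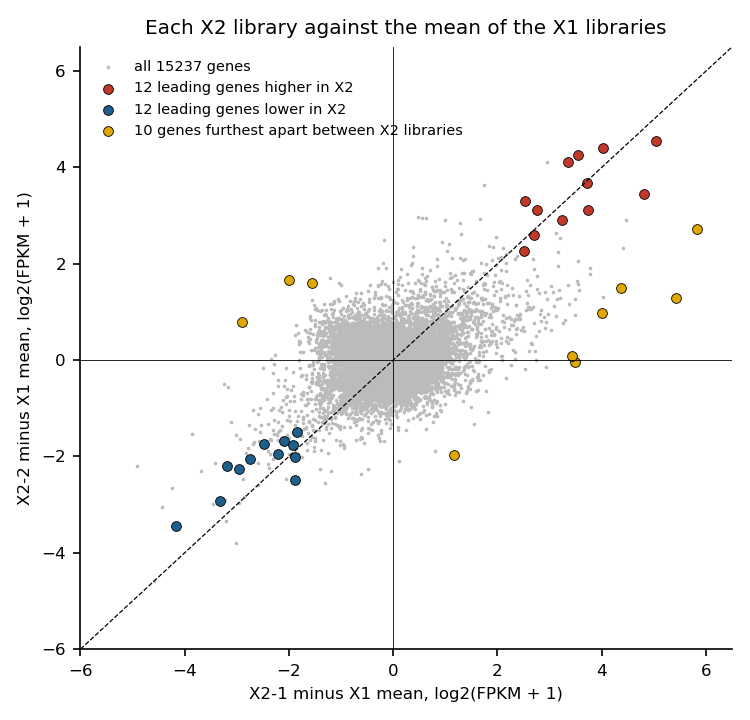
Difference of X2-1 (x axis) and of X2-2 (y axis) from the X1 mean in log2(FPKM + 1), each point a gene, with the dashed line where both are equal; both axes share the X1 mean. The 24 leading genes lie near the line and the 10 genes furthest apart between the X2 libraries lie far from it, as the rules that named them require. Most genes form a cloud around the origin.

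Although no gene was called in the 4-library fit, the genes with the smallest p differed by large factors in both X2 libraries. The leading 12 in each direction are described here; none is called in that fit, and all 24 are called when the 16 libraries share 1 spread. The gene IDs carry no names in the data, and functions are given only where the study annotated a gene with a gene ontology or KEGG term.

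The leading gene was NC1G0107720, which carries no term. It had 64.4 and 45.6 FPKM in X2-1 and X2-2, against 1.51 and 0.580 FPKM in X1-1 and X1-2. The log2 difference was 4.79 ± 0.36 (SE, n = 2 each, limma adjusted p = 0.0805), a 52.7-fold ratio of the mean FPKM. It was low again in the later stages, at 1.87 ± 0.62 FPKM in X3 and 0.516 ± 0.041 in X4 (SD, n = 2 each).

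NC9G0275560, annotated with unfolded protein binding and protein folding, as chaperones are, was the most abundant of the leading genes. It reached 472 and 612 FPKM in X2-1 and X2-2, against 37.0 and 21.1 FPKM in X1-1 and X1-2. The log2 difference was 4.22 ± 0.37 (SE, n = 2 each, limma adjusted p = 0.108), 18.7-fold by the means. X3 had 112.7 ± 8.02 FPKM and X4 39.4 ± 7.54 (SD, n = 2 each). Its groups were far apart and neither pair of replicates differed by as much as 2-fold.

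Several genes with neighbouring IDs were nearly silent in X1 and detected in X2. NC2G0006900, annotated with lipid binding and lipid transport, had 17.1 and 28.4 FPKM in X2-1 and X2-2, against 1.39 and 0 FPKM in X1-1 and X1-2. NC2G0006910, with the same terms, had 4.74 and 8.86 FPKM (110 and 190 reads) in X2 and 0 reads in both X1 libraries, at least 45.4-fold higher when 3 reads are taken as the floor of each X1 library. NC2G0006890 had 9.92 and 17.3 FPKM in X2, against 0 and 2 reads in X1, and NC2G0006880 had 6.42 and 8.53 FPKM in X2, against 2 and 0 reads in X1. In X3 the levels were 100.2 ± 4.24 FPKM for NC2G0006900, 22.7 ± 0.55 for NC2G0006880, 7.62 ± 1.5 for NC2G0006890 and 6.68 ± 0.028 for NC2G0006910 (SD, n = 2 each), and all 4 were at about 1 FPKM or less in X4. Lipid transfer proteins of plants carry lipids to the surface of the shoot. Whether reads of near-identical copies were shared among these genes was not tested, so their separate values are uncertain.

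The other leading genes higher in X2 carry no term. NC2G0005130 had 73.1 and 71.0 FPKM in X2-1 and X2-2, against 7.33 and 2.78 FPKM in X1-1 and X1-2. NC7G0235060 had 123 and 97.6 FPKM in X2, against 14.9 and 9.95 FPKM in X1, and was higher still in X3 (849 ± 13.0 FPKM) and X4 (1596 ± 49.0 FPKM; SD, n = 2 each). NC1G0181180 had 58.4 and 49.4 FPKM in X2, against 9.77 and 9.10 FPKM in X1. NC2G0034840 had 19.7 and 12.5 FPKM in X2, against 0.585 and 0.530 FPKM in X1, and NC10G0043330 had 7.24 and 6.61 FPKM in X2, against 0.189 and 0.343 FPKM in X1. NC1G0136100 differed between the X2 libraries, with 33.6 and 12.4 FPKM, against 0.506 and 0 FPKM in X1. Their log2 differences ran from 2.39 ± 0.27 (NC1G0181180) to 4.13 ± 0.50 (NC1G0136100; SE, n = 2 each), and the 2 groups of libraries did not overlap for any of them, as the rule that named them requires.

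**Figure D3:**
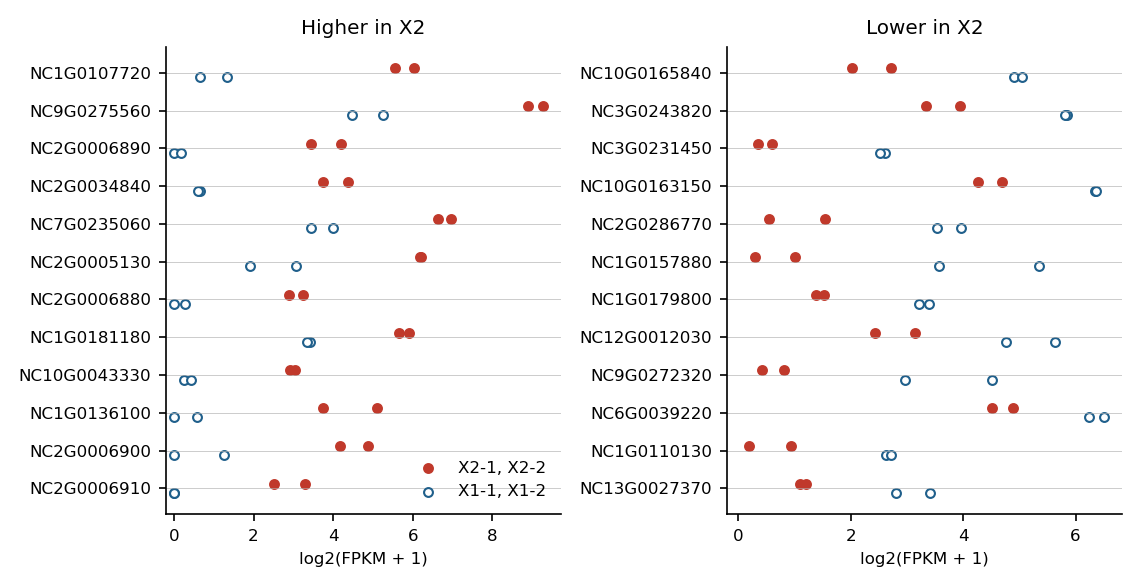
Expression as log2(FPKM + 1) of the 12 leading genes higher in X2 (left) and the 12 lower in X2 (right), with filled points for X2-1 and X2-2 and open points for X1-1 and X1-2. NC9G0275560 stands highest, at 472 and 612 FPKM in X2, and the points of the 2 stages do not overlap in any row.

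Among the genes lower in X2, NC3G0243820 belongs to the ribonucleotide reductase complex, which makes the deoxyribonucleotides for DNA replication. It had 14.4 and 9.10 FPKM in X2-1 and X2-2, against 56.2 and 55.3 FPKM in X1-1 and X1-2, a log2 difference of −2.19 ± 0.31 (SE, n = 2 each, limma adjusted p = 0.224). In X3 it was at 1.91 ± 0.90 FPKM (SD, n = 2). NC2G0286770, annotated with cytokinin biosynthesis and hydrolysis of N-glycosyl bonds, had 0.463 and 1.91 FPKM in X2, against 10.5 and 14.6 FPKM in X1. NC13G0027370, annotated with the brassinosteroid response, had 1.32 and 1.13 FPKM in X2, against 9.58 and 6.00 FPKM in X1. NC3G0231450, whose terms include positive regulation of cell population proliferation and floral organ development, had 0.281 and 0.518 FPKM in X2, against 5.07 and 4.72 FPKM in X1.

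The other leading genes lower in X2 had varied levels. NC1G0157880, annotated with the response to karrikin and blue light signaling, had 0.226 and 1.03 FPKM (5 and 21 reads) in X2, against 10.84 and 39.96 FPKM in X1. NC12G0012030, with dioxygenase activity, had 4.43 and 7.86 FPKM in X2, against 26.2 and 48.4 FPKM in X1. NC6G0039220, annotated with lipid catabolism and systemic acquired resistance, had 21.9 and 28.6 FPKM in X2, against 74.1 and 90.0 FPKM in X1. Among those without a term, NC10G0163150 had 18.2 and 24.7 FPKM in X2, against 80.6 and 81.2 FPKM in X1, and NC10G0165840 had 3.05 and 5.58 FPKM in X2, against 28.95 and 31.96 FPKM in X1. NC1G0179800 had 1.61 and 1.89 FPKM in X2, against 9.54 and 8.27 FPKM in X1. The remaining pair, NC9G0272320 and NC1G0110130, had less than 1 FPKM in X2, against 5.17 to 21.7 FPKM in X1.

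When each group had its own variance, 9 of the 12 leading genes higher in X2 and 2 of the 12 lower were still called. NC10G0165840 and NC1G0179800 are the 2 that were lower. Among the other genes called there were NC12G0189050, annotated with xyloglucan metabolism, with 8.65 and 5.67 FPKM in X2-1 and X2-2 against 1.60 and 1.35 FPKM in X1-1 and X1-2, and NC6G0268960, a beta-glucosidase of the phenylpropanoid pathway, with 6.87 and 5.78 FPKM in X2 against 0.476 and 0.575 FPKM in X1. NC1G0182310, annotated with O-methyltransferase activity, had 38.3 and 87.1 FPKM in X2, against 1.65 and 8.84 FPKM in X1. NC8G0240690, with an acid-amino acid ligase activity, had 5.79 and 4.16 FPKM in X2, against 0.802 and 0.550 FPKM in X1. These 4 genes were named because they carry a term, after their values were seen.

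Gene lists were taken from the gene ontology and KEGG terms of the study. They hold only genes that the study annotated as differing between the species, so they are parts of each pathway. The 43 lists held 639 genes, of which 471 were tested. No member was called in the 4-library fit. Of the 471, 19 were called in the 16-library fit, 9 higher in X2 and 10 lower. Of all 15237 tested genes, that fit called 184 higher (1.21%) and 130 lower (0.853%). Calls in single lists are to be read beside these shares. The median over all tested genes was −0.08 (log2, X2 minus X1). Counts of members with both X2 libraries above or below both X1 libraries are given beside the shares of all tested genes, 10.9% and 20.1%.

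Of the cell wall lists, the pectinesterases had the largest share of members higher in X2. Of 13 tested pectinesterases, which remove methyl groups from pectin, 10 were higher in both X2 libraries and 0 lower in both, with a median log2 difference of 0.67 and library medians of 0.66 and 0.44 above the X1 mean in X2-1 and X2-2. The most abundant, NC5G0140680, had 171 and 291 FPKM in X2-1 and X2-2, against 95.0 and 107 FPKM in X1-1 and X1-2. The second, NC12G0189680, had 84.4 and 94.8 FPKM in X2, against 70.0 and 89.1 FPKM in X1. Called higher in the 16-library fit were NC10G0043940, with 2.86 and 2.54 FPKM in X2 against 0.258 and 0.0724 FPKM in X1, and NC5G0159290, with 5.43 and 2.56 FPKM in X2 against 0.597 and 0.234 FPKM in X1.

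Genes of the secondary cell wall were higher in both X2 libraries for 6 of 10 tested, with 1 lower in both and a median log2 difference of 0.83. NC12G0097300 had 71.5 and 75.6 FPKM in X2-1 and X2-2, against 58.6 and 37.0 FPKM in X1-1 and X1-2. NC9G0169190 had 35.6 and 61.4 FPKM in X2, against 42.5 and 45.0 FPKM in X1. The library medians were 0.48 and 0.94 above the X1 mean in X2-1 and X2-2, so the median was higher in X2-2. Cellulose biosynthesis had 6 of 18 higher in both and 2 lower in both, with a median of 0.12. Its most abundant members were NC1G0104510, with 132 and 195 FPKM in X2 against 102 and 88.1 FPKM in X1, and NC1G0017630, with 99.6 and 105 FPKM in X2 against 85.2 and 50.4 FPKM in X1.

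Of 11 genes of xyloglucan metabolism, 2 were higher in both X2 libraries and 0 lower in both, with a median of 0.62. NC4G0024060 had 109 and 59.7 FPKM in X2-1 and X2-2, against 68.2 and 20.5 FPKM in X1-1 and X1-2, and NC1G0306960 had 99.9 and 57.2 FPKM in X2, against 57.4 and 41.9 FPKM in X1. Of 7 water channels, which let water into enlarging cells, 3 were higher in both and 1 lower in both. NC7G0292490 had 481 and 393 FPKM in X2, against 254 and 246 FPKM in X1, and NC2G0036680 had 273 and 256 FPKM in X2, against 129 and 209 FPKM in X1. The lists of plant-type wall organization (4 of 11 higher in both, 1 lower), unidimensional growth (5 of 18 and 1), phenylpropanoid biosynthesis (4 of 10 and 1) and laccases (3 of 12 and 3) had medians of 0.00, 0.06, 0.22 and 0.13. NC3G0221280, in both the wall organization and the growth list, had 138 and 135 FPKM in X2, against 152 and 126 FPKM in X1. NC8G0271130 of wall organization had 128.5 and 88.0 FPKM in X2, against 84.3 and 55.5 FPKM in X1, and NC3G0225220 of the phenylpropanoid list had 43.4 and 99.4 FPKM in X2, against 96.2 and 148 FPKM in X1.

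**Figure D4:**
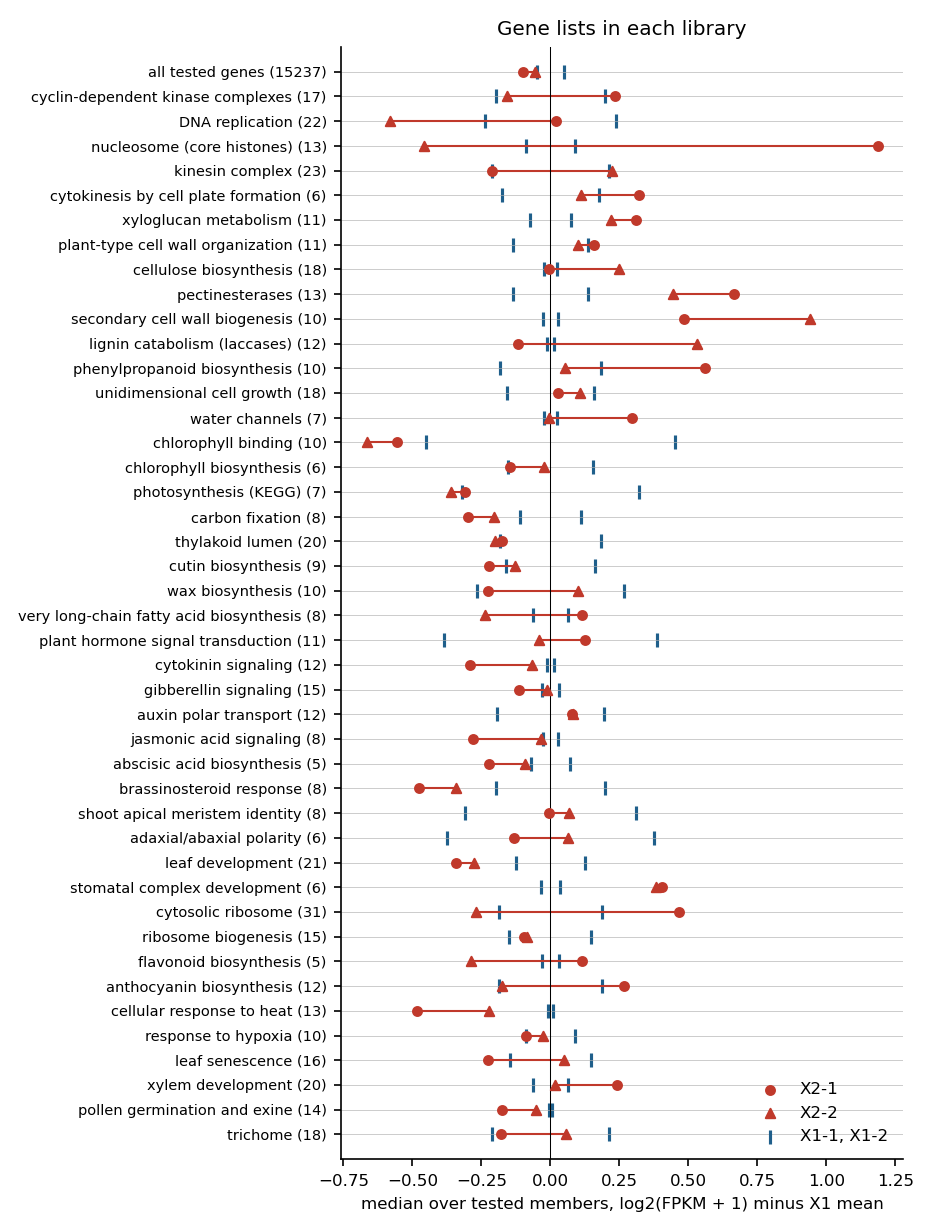
Median over the tested members of each gene list (number in parentheses) of log2(FPKM + 1) minus the X1 mean, with a circle for X2-1, a triangle for X2-2 and bars for X1-1 and X1-2. Pectinesterases and secondary wall genes lie to the right in both X2 libraries, chlorophyll binding to the left in both, and core histones at 1.19 in X2-1 and −0.46 in X2-2.

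The X2 libraries disagreed on the cell division lists. Of 13 tested core histone genes, 12 were higher in X2-1 than in X2-2, and the list median was 1.19 above the X1 mean in X2-1 and −0.46 in X2-2. The most abundant, NC5G0051050, had 1435 and 341 FPKM in X2-1 and X2-2, against 489 and 418 FPKM in X1-1 and X1-2. Over all 18 members of the list, tested or not, the summed histone level was 5210 and 1723 FPKM in X2-1 and X2-2, against 2436 and 2241 FPKM in X1. NC2G0286250 was steadier, with 502 and 367 FPKM in X2, against 390 and 479 FPKM in X1. Both X2 libraries were on the same side for only 2 members. NC4G0023990 had 15.6 and 4.86 FPKM in X2, against 1.90 and 1.61 FPKM in X1, and NC9G0168230 had 39.4 and 56.8 FPKM in X2, against 105 and 153 FPKM in X1.

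The cytosolic ribosome also differed between the X2 libraries. All 31 tested genes of the cytosolic ribosome were higher in X2-1 than in X2-2, against 48.9% of all tested genes, and the list medians were 0.47 and −0.27 relative to the X1 mean. None of them had both X2 libraries above or below both X1 libraries. NC6G0040280 had 1468 and 537 FPKM in X2-1 and X2-2, against 828 and 674 FPKM in X1-1 and X1-2, and NC5G0159500 had 995 and 654 FPKM in X2, against 865 and 596 FPKM in X1. Ribosome biogenesis did not follow, with medians of −0.10 and −0.09 in X2-1 and X2-2. Its most abundant members were NC5G0262300, with 259 and 178 FPKM in X2 against 190 and 233 FPKM in X1, and NC2G0009640, with 75.0 and 73.3 FPKM in X2 against 77.4 and 59.9 FPKM in X1.

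DNA replication genes were higher in X2-1 than in X2-2 for 17 of 22, and members of cyclin-dependent kinase complexes for 14 of 17, while kinesins went the other way, with 5 of 23 higher in X2-1. Their median log2 differences between the stages were −0.26, 0.07 and 0.06. NC2G0001070, of DNA replication, had 161 and 81.7 FPKM in X2-1 and X2-2, against 131 and 116 FPKM in X1-1 and X1-2, and NC14G0011010 had 40.4 and 38.9 FPKM in X2, against 39.4 and 38.6 FPKM in X1. Of the kinase complexes, NC8G0213590 had 49.4 and 33.1 FPKM in X2, against 43.4 and 32.8 FPKM in X1, and NC1G0181420 had 40.8 and 38.0 FPKM in X2, against 44.5 and 26.8 FPKM in X1. Of the kinesins, NC6G0154590 had 28.5 and 34.0 FPKM in X2, against 20.7 and 29.5 FPKM in X1, and NC6G0154650 had 26.9 and 37.5 FPKM in X2, against 44.2 and 28.0 FPKM in X1. Called lower in the 16-library fit were the ribonucleotide reductase gene NC3G0243820 of the DNA replication list, described above, and NC10G0164130 of the kinase complexes, which had 0.816 and 0.366 FPKM in X2, against 2.92 and 1.53 FPKM in X1. Of 6 genes of cell plate formation 0 were on the same side in both. NC10G0248710 had 56.9 and 26.6 FPKM in X2, against 37.5 and 35.7 FPKM in X1, and NC1G0182050 had 53.0 and 25.5 FPKM in X2, against 26.66 and 22.01 FPKM in X1.

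Chlorophyll-binding proteins of the light-harvesting antenna were lower in both X2 libraries for 6 of 10 tested and higher in both for 0, with a median log2 difference of −0.61. None was called in either fit, and the X1 libraries differed by a median of 0.90. NC2G0033530 had 961 and 980 FPKM in X2-1 and X2-2, against 1166 and 2263 FPKM in X1-1 and X1-2, and NC6G0259500 had 852 and 857 FPKM in X2, against 935 and 1657 FPKM in X1. The summed level of the list was 4251 and 3971 FPKM in X2, against 4808 and 8998 FPKM in X1, so X1-2 stood apart and X1-1 lay close to X2. Thylakoid lumen (6 of 20 lower in both), carbon fixation (4 of 8), the photosynthesis pathway (2 of 7) and chlorophyll biosynthesis (2 of 6) had medians of −0.29, −0.25, −0.36 and −0.04. In the thylakoid lumen, NC14G0014370 had 1893 and 1407 FPKM in X2-1 and X2-2, against 1663 and 2913 FPKM in X1-1 and X1-2. NC11G0115830 of the photosynthesis pathway had 808 and 944 FPKM in X2, against 970 and 1516 FPKM in X1. In both, X1-2 was again the highest library.

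The RuBP carboxylase gene NC7G0247280, which fixes carbon dioxide, had 5916 and 9374 FPKM in X2-1 and X2-2, against 6447 and 16780 FPKM in X1-1 and X1-2. It was among the 5 genes with the highest mean level. The others were NC11G0302260, with 15330 and 13090 FPKM in X2 against 12460 and 23650 FPKM in X1, and NC9G0173960, annotated with defense against fungi, with 14060 and 9720 FPKM in X2 against 11970 and 4120 FPKM in X1. NC3G0227630 had 7671 and 6622 FPKM in X2, against 8610 and 6308 FPKM in X1, and NC11G0302220 had 3186 and 4934 FPKM in X2, against 7995 and 8495 FPKM in X1. Of these 5 genes, the groups overlapped for all but NC11G0302220, which did not pass the test (log2 difference −1.05 ± 0.72, SE, n = 2 each).

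No member of the hormone lists was called in the 4-library fit. In cytokinin signaling, NC9G0113670 had 2.81 and 5.26 FPKM in X2-1 and X2-2, against 14.2 and 19.7 FPKM in X1-1 and X1-2, and NC6G0039670 had 0.470 and 0.509 FPKM in X2, against 2.69 and 3.74 FPKM in X1. NC11G0244570, which belongs to the cytokinin, gibberellin and trichome lists, had 8.36 and 10.2 FPKM in X2, against 3.88 and 3.36 FPKM in X1. NC1G0104830, of gibberellin signaling, had 10.2 and 4.84 FPKM in X2, against 1.07 and 1.5 FPKM in X1. These 4 were called in the 16-library fit, which gave 1 higher and 2 lower of 12 cytokinin genes tested. Of 15 gibberellin genes tested it gave 2 higher and 0 lower, with NC11G0244570 counted in both lists. The shares of all tested genes were 1.21% called higher and 0.853% called lower. The most abundant gibberellin gene, NC4G0239490, had 86.5 and 115 FPKM in X2, against 117 and 126 FPKM in X1, and the most abundant cytokinin gene was NC1G0133020, with 39.0 and 51.1 FPKM in X2 against 74.9 and 79.2 FPKM in X1.

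The brassinosteroid response had 4 of 8 genes lower in both X2 libraries, 0 higher in both and a median of −0.33, and its called member in the 16-library fit was NC13G0027370. In auxin transport, NC12G0188220 had 44.6 and 44.6 FPKM in X2-1 and X2-2, against 18.9 and 16.2 FPKM in X1-1 and X1-2. The gene is also in the secondary wall list, and the other 11 auxin transport genes held 1 that was lower in both. The lists of plant hormone signal transduction (11 tested), jasmonic acid signaling (8) and abscisic acid biosynthesis (5) had medians of 0.13, −0.12 and −0.25, with 0 members called in either fit.

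Leaf development genes were lower in both X2 libraries for 9 of 21 tested and higher in both for 1, with a median of −0.31. Called lower in the 16-library fit were NC9G0113670, named above for cytokinin, and NC5G0261130, with 0.986 and 0.946 FPKM in X2-1 and X2-2 against 2.47 and 4.98 FPKM in X1-1 and X1-2. The most abundant was NC14G0157050, with 28.7 and 30.1 FPKM in X2 against 40.1 and 33.5 FPKM in X1. NC4G0237220, of the meristem identity list, was called higher, with 15.1 and 8.05 FPKM in X2 against 3.74 and 2.17 FPKM in X1. Stomatal complex development had library medians of 0.41 and 0.38 in X2-1 and X2-2, with 2 of 6 higher in both. Its most abundant members were NC1G0180400, with 52.1 and 24.1 FPKM in X2 against 44.2 and 8.34 FPKM in X1, and NC1G0135060, with 23.4 and 32.9 FPKM in X2 against 20.6 and 26.4 FPKM in X1. Adaxial and abaxial polarity had a median of −0.01 over 6 genes, and its most abundant gene, NC12G0189180, had 101 and 116 FPKM in X2, against 168 and 85.2 FPKM in X1.

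The surface and pigment lists gave little. Of 10 wax genes 1 was called lower in the 16-library fit, NC9G0112120, with 6.55 and 8.15 FPKM in X2-1 and X2-2 against 13.9 and 23.0 FPKM in X1-1 and X1-2. Cutin, wax, very long-chain fatty acid, flavonoid and anthocyanin biosynthesis had medians of −0.17, −0.09, 0.03, 0.13 and 0.04. Among the anthocyanin genes, 5 of 12 were higher in both X2 libraries and 3 lower in both. NC12G0187130, shared by the cutin, wax and pollen lists, had 91.1 and 156 FPKM in X2, against 215 and 145 FPKM in X1. NC2G0036480 of the anthocyanin list had 167 and 115 FPKM in X2, against 166 and 139 FPKM in X1.

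Lists for stress and for other cell types were set beside these. Of 13 genes of the cellular response to heat, 6 were lower in both X2 libraries and 1 higher in both, NC4G0019250, with 436 and 317 FPKM in X2-1 and X2-2 against 173 and 102 FPKM in X1-1 and X1-2. NC6G0039830 of that list had 0.174 and 2.07 FPKM in X2, against 11.9 and 49.0 FPKM in X1. The most abundant, NC10G0045250, had 604 and 470 FPKM in X2, against 654 and 1304 FPKM in X1. The summed level was 1263 and 1099 FPKM in X2, against 1110 and 1674 FPKM in X1. Hypoxia (10 tested) summed to 272 and 302 FPKM in X2, against 235 and 265 FPKM in X1, and leaf senescence (16 tested) to 351 and 292 FPKM in X2, against 308 and 218 FPKM in X1. Xylem development (20 of 25 tested) summed to 329 and 293 FPKM in X2, against 295 and 244 FPKM in X1, trichomes (18 of 21) to 382 and 362 FPKM in X2, against 400 and 309 FPKM in X1, and pollen germination and exine (14 of 38) to 157 and 227 FPKM in X2, against 286 and 208 FPKM in X1. The called xylem gene in the 16-library fit, NC4G0237010, had 0.768 and 0.540 FPKM in X2, against 3.39 and 2.39 FPKM in X1. Each sum was taken over all members of its list, also those that were not tested. The groups overlapped in each of these sums but that of hypoxia. The part of such cells in the results was not tested, and in pooled leaves more cells of a type and more RNA per cell cannot be told apart.

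The genes furthest apart between the X2 libraries were taken among those with a mean of at least 10 FPKM in X2. Of the first 10, 7 were higher in X2-1 and 3 in X2-2, and of the 7, 6 were also higher in X1-1 than in X1-2. All genes at least 2-fold apart between the X2 libraries leaned the other way, with 691 higher in X2-1 and 1161 in X2-2. Over all tested genes, the median of X1-2 minus X1-1 was −0.099 (log2), so most tested genes were also higher in X1-1. NC3G0221740 had 84.4 and 3.86 FPKM in X2-1 and X2-2, against 2.34 and 0.188 FPKM in X1-1 and X1-2. NC8G0215020, with the copper binding and lignin terms of laccases, had 18.5 and 248 FPKM in X2, against 58.8 and 349 FPKM in X1. NC1G0305950, annotated with calcium binding and the auxin response, had 147 and 11.8 FPKM in X2, against 59.6 and 1.84 FPKM in X1, and NC1G0104420, annotated with the response to wounding, had 51.8 and 4.21 FPKM in X2, against 17.2 and 0.318 FPKM in X1.

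The others of these 10 carry no term. NC3G0205710 had 4.88 and 73.7 FPKM in X2-1 and X2-2, against 25.9 and 19.5 FPKM in X1-1 and X1-2, and NC9G0276620 had 11.8 and 112 FPKM in X2, against 45.1 and 29.5 FPKM in X1. For both, the X1 libraries lay between the X2 libraries. NC6G0098710 had 176 and 19.0 FPKM in X2, against 58.2 and 103 FPKM in X1. NC1G0136090, next in number to NC1G0136100, had 148 and 16.1 FPKM in X2, against 5.76 and 0 FPKM in X1. NC2G0288000 had 187 and 22.1 FPKM in X2, against 11.9 and 9.54 FPKM in X1, and NC1G0088660 had 194 and 25.6 FPKM in X2, against 54.7 and 0.590 FPKM in X1.

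The same growth step in *N. colorata* was set beside this one. In the L-species, 613 of 16452 genes (3.73%) were called between L2 and L1, 415 higher in L2 (2.52%) and 198 lower (1.20%). The L2 and L1 libraries were deeper. Their replicates also lay closer together than those of X2 and X1 (SD 0.358 and 0.369, against 0.672 and 0.555). The counts of called genes therefore do not compare the size of the step between the species. At an unadjusted limma p under 0.05 with at least 2-fold, there were 857 of 16452 genes in the L-species and 525 of 15237 in the X-species. The difference between the species in the step, X2 minus X1 less L2 minus L1, was tested in a limma fit of the 8 libraries, and 9 of 17228 genes (0.0522%) were called, 7 with a positive (0.0406%) and 2 with a negative difference (0.0116%). That fit shared 1 estimate of the spread over both species. Part of it comes from the L-species replicates, which agreed better than those of X2 and X1. Of the 7 genes with a positive difference, 6 had both X2 libraries above both X1 libraries. Of these, NC10G0043330, NC2G0006940 and NC6G0268960 were below 1 FPKM in every L2 and L1 library. NC1G0107720 differed between the species by 5.14 ± 0.47 and NC9G0275560 by 4.18 ± 0.43 (log2, SE, limma adjusted p = 0.0382). NC9G0275560 had 138 and 100.4 FPKM in L2-1 and L2-2, against 109 and 121 FPKM in L1-1 and L1-2, so its levels in the L-species overlapped. NC1G0103560, which carries no term, had 56.8 and 57.0 FPKM in X2, against 13.1 and 14.4 FPKM in X1, and 38.3 and 39.1 FPKM in L2, against 59.1 and 83.4 FPKM in L1. The count was 0 with any 1 L-species library or any 1 X2 library left out, 46 without X1-1 and 2 without X1-2, and 0 with a pseudocount of 0.1.

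The next step in *N. micrantha* gave more calls. The X3 replicates lay closer together than those of X1 (SD 0.249 against 0.555), so the counts do not measure the size of the step alone. Without a test, X3 libraries correlated with X2 libraries at 0.8745 to 0.8908 (Pearson r). X1 libraries correlated with X2 libraries at 0.9047 to 0.9543. Between X3 and X2, which share the X2 libraries with the comparison above, 1564 of 15230 genes (10.3%) were called, 658 higher in X3 (4.32%) and 906 lower (5.95%). Lower at X3 were 7 of 13 histones, 11 of 22 DNA replication genes, 12 of 22 kinesins, 9 of 14 genes of kinase complexes and 4 of 6 of stomatal development, with 0 higher in each. Relative to the X1 mean, the histone median was −2.59 and −1.99 in X3-1 and X3-2, where it had been 1.19 and −0.46 in X2-1 and X2-2. Secondary wall genes stood at 2.061 and 2.099 in X3-1 and X3-2, and 4 of 12 were called higher.

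**Figure D5:**
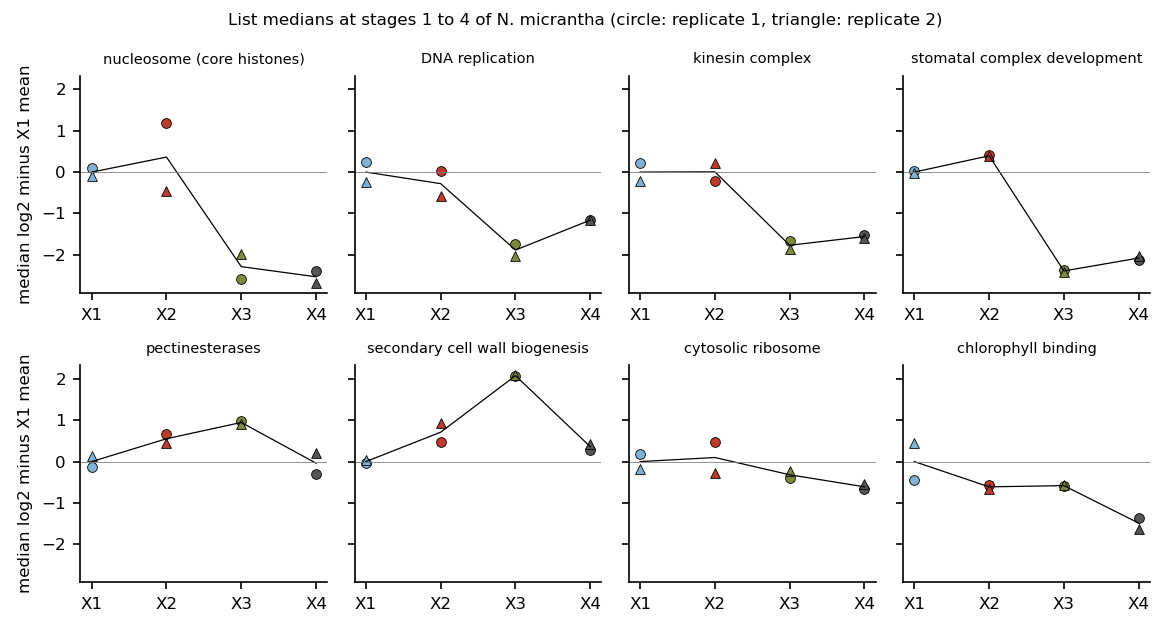
Median of 8 gene lists at stages 1 to 4 of *N. micrantha*, as log2(FPKM + 1) minus the X1 mean, with circles for replicate 1, triangles for replicate 2 and a line through the mean of both. Histones (1.19 and −0.46 in X2-1 and X2-2), DNA replication genes (0.02 and −0.58) and kinesins (−0.21 and 0.22) lie apart by library at X2, stomatal genes lie above 0 in both (0.41 and 0.38), and all 4 are low at X3 (histones −2.59 and −1.99), while secondary wall genes reach 2.061 and 2.099 at X3.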

How the data were processed

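The authors grew both species in containers, extracted RNA by the CTAB method, selected poly-A RNA and sequenced paired reads. The paper describes 3 repeats per group, and 2 are analysed here. Per the submitters' processing notes, the tools were CASAVA 1.8, fastp 0.20.0, HISAT2 2.1.0, Cufflinks 2.2.1, HTSeq 0.7.2 and DESeq. The paper describes a transcriptome assembled with Trinity, while these notes list an aligner to a reference. The reference behind the gene IDs is not given in the sources used here, and whether reads of both species mapped to it equally was not tested. The deposited values are FPKM, which the authors calculated for 31475 genes. Every column was mapped to a sample, and 0 columns were left out. Whole reads were recovered for 100.00% of the values above 0 (relative tolerance 1e-08).

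Limma 3.58.1 in R 4.3.3 was fitted to log2(FPKM + 1), keeping genes that reached 1 FPKM in 2 or more of the libraries compared, with a trend of variance on level. A call needed a p below 0.05 after Benjamini and Hochberg's adjustment together with a log2 difference of 1 or more in size. Named genes were the 12 higher and 12 lower in X2 with the smallest p and no overlap of the groups (no gene was called), each called member and the 2 most abundant members of each list, the 10 genes furthest apart between the X2 libraries with a mean X2 level of at least 10 FPKM, and the 5 most abundant genes. Not all abundant members are printed for lists described by counts. Genes called between the species, and those called only with another setting, were named after their values were seen. The lists and comparisons were chosen with earlier results of these data known. Alternatives were pseudocount 0.1, no filter, median-ratio scaling, the replicate number as a block, voom, all 16 libraries and leaving out each library. The group variances and the alternatives of the 16-library fit were added after seeing the data. Scripts were tested on simulated data. Other calculations used Python 3.11.15, numpy 2.4.6 and pandas 2.3.3.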

Additional observations from a re-analysis of the deposited data

Results flagged for a closer look

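The change from stage 1 to stage 2 differed between *N. micrantha* and *N. colorata* for 9 genes in the limma fit of the 8 libraries (adjusted p = 0.0382 for each). That fit shared 1 estimate of the spread over both species, whose replicates did not agree equally well. The differences, X-species minus L-species on the log2 scale, were 5.14 for NC1G0107720, 4.18 for NC9G0275560, 3.18 for NC10G0043330, 2.82 for NC1G0103560, 2.77 for NC2G0006940 and 2.32 for NC6G0268960. For these 6 genes the X2 libraries were above the X1 libraries. NC10G0043330, NC2G0006940 and NC6G0268960 had less than 1 FPKM in every L2 and L1 library. For them the values that differed were mainly those of the X-species. The part of read mapping in these low L-species levels was not tested. NC2G0006940, a further lipid transport gene beside NC2G0006900, had 5.57 and 4.75 FPKM in X2-1 and X2-2, against 2 and 1 reads in X1-1 and X1-2.

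For the rest of the called genes, NC7G0247080, NC3G0220250 and NC7G0051660, the X-species had almost no reads. The values that differed were those of the L-species. The X2 and X1 libraries had 24815135 to 31440253 reads on genes and a median of 15 to 21 reads per gene, against 43491594 to 51396582 reads and a median of 61 to 80 in L2 and L1. The genome behind the gene IDs is not given in the sources used here, and the part of depth and of read mapping in these near-absences was not tested. NC7G0247080 (4.03) had 10.3 and 8.40 FPKM in L2-1 and L2-2, against 119 and 196 FPKM in L1-1 and L1-2. NC3G0220250 (−2.35), annotated with rRNA base methylation, had 12.9 and 12.8 FPKM in L2, against 1.92 and 1.96 FPKM in L1. NC7G0051660 (−2.20), an alpha-amylase of starch breakdown, had 6.06 and 5.09 FPKM in L2, against 0.467 and 0.389 FPKM in L1.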

How the results depend on the processing

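The 0 calls between X2 and X1 held under pseudocount 0.1, voom, scaling by median ratios and the absence of a filter. There were 314 calls with all 16 libraries, 31 with group variances, 525 at unadjusted p and 162 with the replicate number as a block, and 0 to 66 with a library left out. Called list members numbered 0, and 19, 2, 31 and 7 under those 4 settings, and 0 to 3 with a library left out. The 16-library count of 314 became 31 with group variances and 178 with voom, and 160 to 894 with a library left out. The 9 differences between the species became 115 with all 16 libraries, 0 with pseudocount 0.1 and 2 with the block, and 0 to 46 with a library left out. The cause of these shifts was not tested.

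The labels do not say whether libraries with the same replicate number share plants or handling, so whether X2 and X1 are paired is not known. The deviations of X2 and X1 with the same number correlated at 0.217 across genes, and those of L2 and L1 at 0.102. Of the 162 genes called with the block, 110 were among the 314. The SD of the replicate difference in X2 ran from 0.607 without the filter to 0.806 with pseudocount 0.1, and the position was 0.26 to 0.275 for X2-1 and 0.197 to 0.207 for X2-2. The log2 differences of the 24 leading genes kept their sign under all alternatives run, which the rule that named them largely fixed. It required no overlap of the groups, so leaving out a library could not change the sign. Settings that alter only the spread leave the difference as it was. The counts for L2 against L1 and for X3 against X2 were not recomputed.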
